A study of Mus musculus with 4 samples.

Results

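The genes described here encode mitochondrial ribosomal proteins, the protein part of the ribosome inside mitochondria. They were chosen by symbol, as every gene whose symbol begins with Mrpl (large subunit) or Mrps (small subunit) followed by a number and that had at least 1 probe set annotated with that symbol alone. This gave 71 of the 22180 genes with such a probe set, 43 with a large subunit symbol and 28 with a small subunit symbol. The probe set with the highest mean signal over the 4 arrays stood for each gene, so the level itself was used in the choice and is given only as a description. Probe sets carrying several symbols were left out, and 7 further genes of this naming pattern had only such probe sets.

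The cells were mouse skeletal stem cells (SSCs) from animals of 4 to 6 weeks of age, kept in 3D collagen gel for 48 h. The 2 Mmp14 knockout arrays carried cells of genotype Mmp14-/-, and the 2 wild type arrays carried cells of genotype Mmp14+/+. Mmp14 encodes a collagen-cleaving protease held in the cell membrane. The labels do not say whether replicates came from separate animals or cultures or how the allele was made, so p-values measure only the spread between these arrays, which may be technical.

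As background, mitochondria keep a small genome of their own, and their ribosome translates the few proteins it encodes, all of them core subunits of the respiratory chain and ATP synthase. The ribosomal RNAs come from mitochondrial DNA, whereas every ribosomal protein is encoded in the nucleus, made in the cytosol and imported. The small subunit decodes the messenger RNA and the large subunit joins the amino acids. Some of the proteins have counterparts in bacterial ribosomes and others were added in mitochondria.

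All 71 genes had an Entrez identifier in the RefSeq annotation of GRCm38.p6, under the same symbol, and they lay on 17 chromosomes, with 11 genes on chromosome 11 and 8 on chromosome 17. In 3 cases the symbol and the known complex differ. Structures of the mammalian ribosome place the products of Mrps18a and Mrps30 in the large subunit, and the product of Mrps36 is known as a component of the 2-oxoglutarate dehydrogenase complex.

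The promoters of a few members with larger differences, in either direction, are shown because the factors NRF1 and GABP, an ETS family protein, are known regulators of nuclear genes for mitochondrial translation. Each is the 150 bases before the annotated start, read 5′ to 3′ from RefSeq (GRCm38.p6), with motif matches in capitals. Mrpl20 (chr4:155802728-155802877, plus strand) was called lower in knockout cells, and the capitals mark an E-box (CACGTG). For Mrpl54, the other called member, no promoter sequence was available. Mrpl34 (chr8:71464776-71464925, plus strand) and Mrpl17 (chr7:105811088-105811237, minus strand) had the next largest differences in the large subunit, and the capitals mark an ETS core (CCGGAAG) in Mrpl34 and an NRF1 core (GCGCANGCG), matched at 2 places, in Mrpl17. Mrps31 (chr8:22411190-22411339, plus strand) had a higher signal in knockout cells, and none of the motifs searched was in its window.
Mrpl20: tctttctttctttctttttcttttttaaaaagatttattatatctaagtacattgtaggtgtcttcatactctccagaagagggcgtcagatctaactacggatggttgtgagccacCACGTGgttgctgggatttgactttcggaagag
Mrpl34: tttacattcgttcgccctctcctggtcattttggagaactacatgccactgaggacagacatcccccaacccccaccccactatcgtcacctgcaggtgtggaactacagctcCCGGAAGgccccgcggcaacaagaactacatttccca
Mrpl17: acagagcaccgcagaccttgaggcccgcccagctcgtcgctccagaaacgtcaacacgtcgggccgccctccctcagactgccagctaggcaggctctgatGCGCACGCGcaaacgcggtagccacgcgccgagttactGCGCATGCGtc
Mrps31: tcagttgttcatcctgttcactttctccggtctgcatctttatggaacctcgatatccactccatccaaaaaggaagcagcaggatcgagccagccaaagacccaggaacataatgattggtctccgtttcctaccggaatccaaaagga

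Motifs were searched on both strands in the 250 bases before every annotated start, and 62 of the 71 members had a promoter in the table. The ETS core was found in 16 of the 62 (25.8%), against 14.9% of the 9963 tested genes with a promoter. The NRF1 core was found in 11 (17.7%), against 12.3% of tested genes. Of those 11 genes, 9 had large subunit symbols and 2, Mrps18b and Mrps21, small subunit symbols. The E-box was in 5 members (8.06%, against 9.81%) and the YY1 site AAGATGGCG in 2 (3.23%, against 1.31%). The median knockout minus wild type difference was −0.16 log2 in the 15 tested members with an ETS core and −0.12 in the 44 without one. No test was made of this difference. The letters of the NRF1 core were set after the matches of another, longer form had been seen. That stricter form matched fewer members, and with it the members with a match had the smaller median difference, whereas with the letters used here they had the larger one, so no medians are given for NRF1. Another form of the same length, GCGCNTGCG, was found in 12 members (19.4%), against 12.3% of tested genes, 9 of them with large and 3 with small subunit symbols. These matches describe letters in a window and not bound sites.

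The study set knockout against wild type cells to screen for transcriptional changes. Mmp14 itself was at 5.77 and 5.84 log2 in knockout cells, against 8.77 and 8.83 in wild type cells, and fell by 2.99 log2 (SE 0.10, limma adjusted p = 0.000278). Because the deleted part of the gene is not stated, what its probe set still measures is not known. Of the 14 stromal markers, Col1a1, Prrx1 and the rest were all above the 2.34 log2 set for dim genes, while none of the 5 endothelial, 4 lymphocyte or 1 erythroid marker genes reached it. Of these stromal markers, 6 were called (42.9%, against 11.3% of all genes tested). Cxcl12 (1.81 log2), Pdgfra (1.77), Vcam1 (1.65), Cd200 (1.46) and Nt5e (1.10) rose and Lepr (−2.26) fell. The Cd200 call was lost without wild type replicate 1 (limma adjusted p = 0.0739) or 2 (0.0572). Of 4 tested muscle markers, 2 were below 0 and 2 above, and 1 was called (25%, against 11.3% of all genes tested). This gene, Rgs5, fell (−1.07 log2). The part of these marker changes in the values of the ribosomal proteins was not tested. Macrophage and leukocyte markers reached the 2.34 log2 limit in 5 of 9 cases. Their mean level over the list was 2.48 and 2.58 log2 in knockout cells and 2.72 and 2.60 in wild type cells. Xist was higher (0.73 log2, limma adjusted p = 0.0155) and the Y-linked gene Eif2s3y lower (−0.69, limma adjusted p = 0.0474) in knockout cells. The Y-linked genes Kdm5d (−0.42, limma adjusted p = 0.104) and Uty (−0.25, limma adjusted p = 0.52, overlapping groups) were not called. The part of sex in the values below was not tested.

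Mitochondrial ribosomal protein genes had slightly lower signals in knockout cells as a group, by a median of 0.14 log2. Large changes were not seen: 66 of the 68 tested members differed by under 0.5 log2, as did 11021 of all 12708 genes tested. Mrpl54 and Mrpl20, both of the large subunit, fell by about 0.63 log2 and were the only members called at an adjusted p below 0.05 (limma, Benjamini-Hochberg over all 12708 genes tested). No member was called higher. Each of the 2 calls was lost on leaving out single arrays, and both were lost when every probe set of the array was fitted together (limma adjusted p = 0.171 for Mrpl54 and 0.110 for Mrpl20).

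In counts, 2 of 68 tested members (2.94%) were called, both lower, against 11.3% of all genes tested, of which 5.12% were called lower and 6.2% higher. The share of members called was therefore below that of the array as a whole. At an unadjusted p below 0.05 in the same limma fit, 14 members were lower and 1 was higher, and the shares over all genes were 13.5% lower and 14.1% higher. The difference was below 0 in 49 members (72.1%), against 50.6% of all genes tested. Both knockout arrays lay below both wild type arrays in 33 members (48.5%), against 29.8% of all genes, and above both in 8 (11.8%), against 28% of all genes. The members were proposed with these results known, so these shares describe them and support nothing further. In bulk samples, fewer cells of a type and less RNA per cell cannot be told apart.

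**Figure D1:**
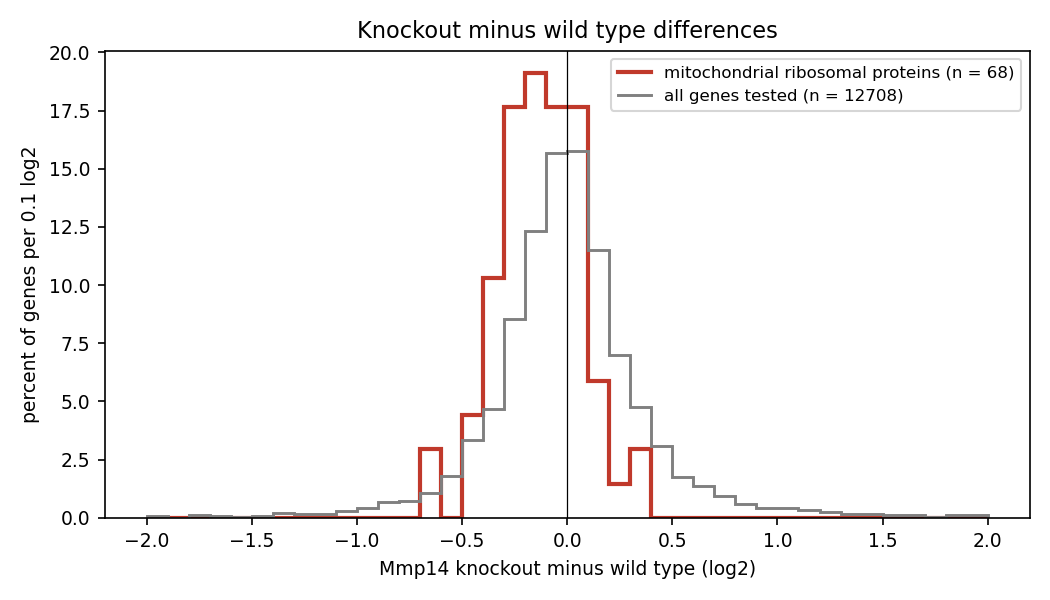
Knockout minus wild type difference (x axis, log2) as the percent of genes in each 0.1 log2 bin (y axis) for the 68 tested mitochondrial ribosomal protein genes (red) and for all 12708 genes tested (grey); 68 genes beyond 2 log2 in either direction are not drawn. The red outline lies left of the grey one, with medians of −0.14 and −0.0041 log2, and it lacks the long tails of the grey one.

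The lower and upper quartiles of the members were −0.27 and 0.0039 log2, against −0.18 to 0.17 for all genes tested. The median size of a member's difference, regardless of sign, was 0.16 log2. Arrays of the same group differed by a median of 0.12 log2 in knockout and 0.13 in wild type over the same members. The difference between groups was larger than the gap between replicates in both groups for 27 of the 68 members (39.7%), against 46.2% of all genes tested, and not larger for 41. The standard error of a member's difference ran from 0.10 to 0.21 log2.

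The large subunit had a median difference of −0.14 log2 over 42 tested genes, and the small subunit had −0.14 over 26. The large subunit's median signal was 5.12 and 5.09 log2 on the knockout arrays, against 5.24 and 5.18 on the wild type arrays. The small subunit's was 5.03 and 5.18 on the knockout arrays, against 5.25 and 5.27 on the wild type arrays. In both subunits the knockout arrays lay below the wild type arrays. The gap between the subunit medians was 0.08 and −0.09 log2 in knockout cells and −0.01 and −0.09 in wild type cells, and these ranges overlap. Signals of different probe sets are not comparable as amounts, so only the change of this gap between arrays carries information. Counting Mrps18a and Mrps30 with the large subunit and leaving out Mrps36 left both median differences at −0.14. The subunit medians moved apart on leaving out single arrays: without wild type replicate 2 they were −0.09 in the large and −0.17 in the small subunit, and without Mmp14 knockout replicate 1 they were −0.14 and −0.084. Whether the subunits differed was not tested.

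The shift was not equally clear on each array. Set against its own mean over the 4 arrays, the median member was at −0.10 log2 on knockout array 1 and −0.03 on knockout array 2, against 0.07 on wild type array 1 and 0.06 on wild type array 2. Of the 26 tested small subunit genes, 20 were below their own mean on knockout array 1 and 13 on knockout array 2, against 8 and 9 on the wild type arrays. Of the 42 large subunit genes, 30 and 29 were below their mean on the knockout arrays, against 9 and 19 on the wild type arrays. All genes tested had medians between −0.01 and 0.02 log2 on the 4 arrays by the same measure.

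**Figure D2:**
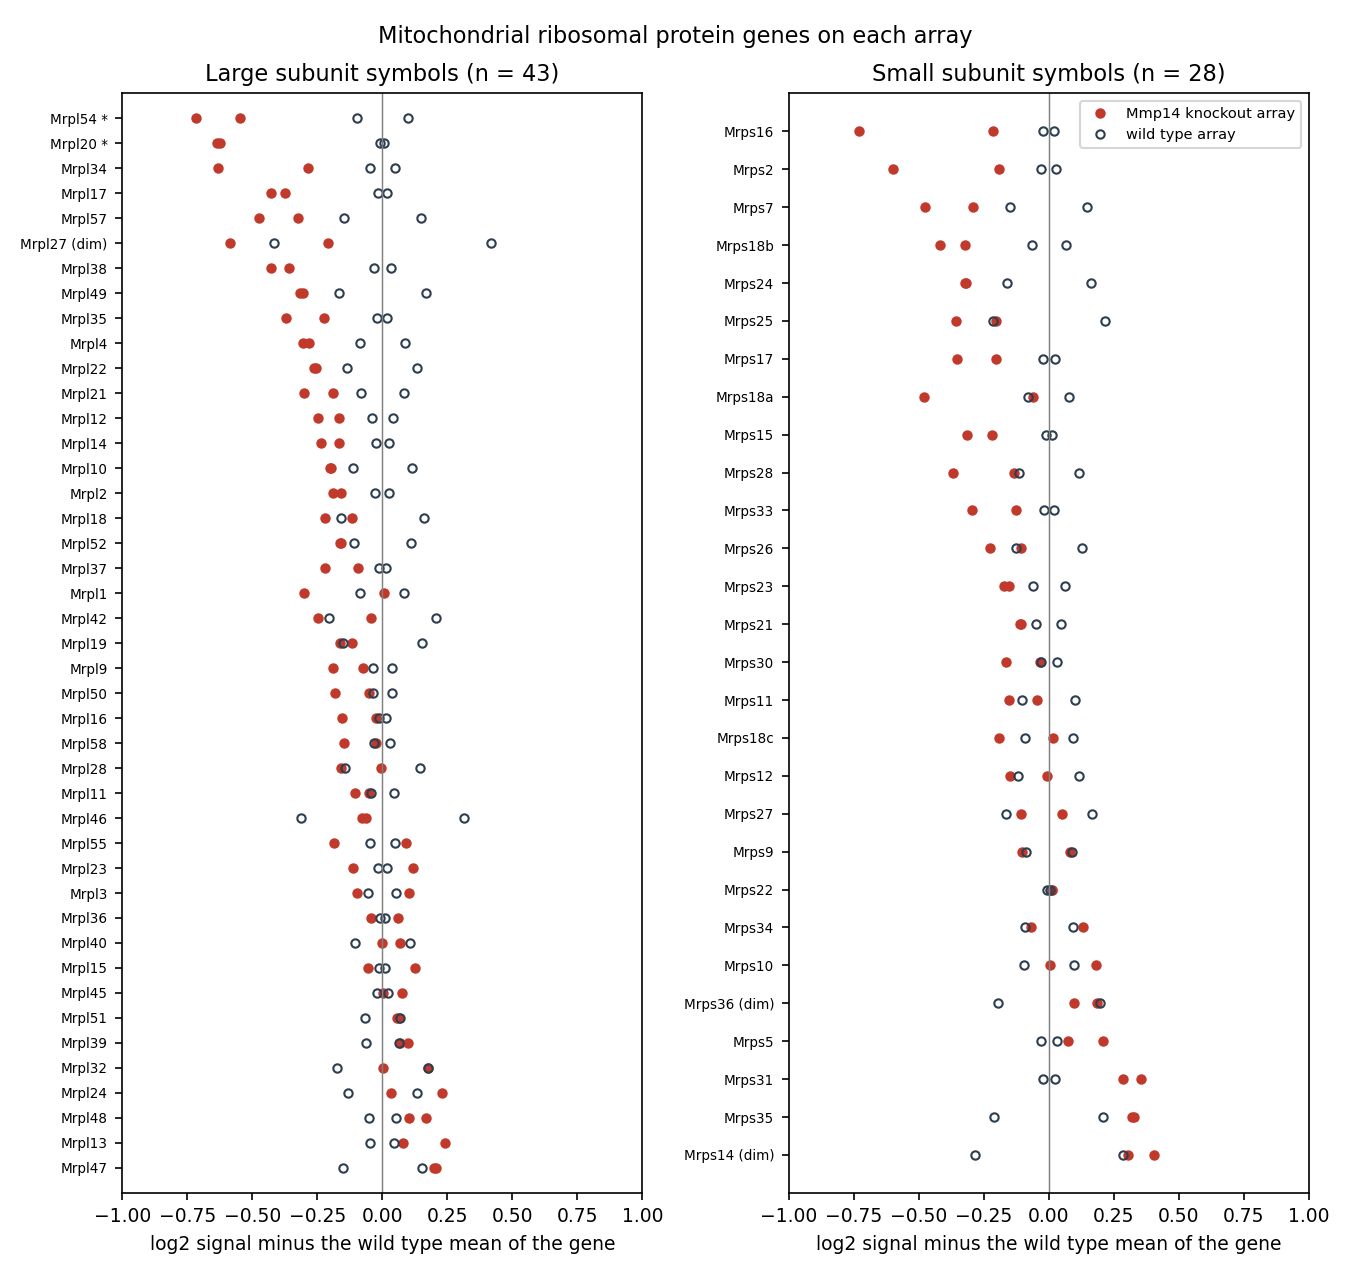
Log2 signal of each of the 71 genes on each array minus the wild type mean of that gene (x axis), with large subunit symbols on the left and small subunit symbols on the right, sorted by the difference; filled red points are knockout arrays and open points wild type arrays. An asterisk marks the called genes Mrpl54 and Mrpl20, and "(dim)" marks the 3 genes that were not tested; most red points lie left of 0 in both panels.

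Mrpl54, a mitochondria-specific protein of the large subunit, was at 5.81 and 5.98 log2 in knockout cells, against 6.62 and 6.43 in wild type cells. The groups did not overlap, and it fell by 0.63 log2 (SE 0.12, limma adjusted p = 0.0283), which was 1.55-fold lower. The call was lost without wild type replicate 1 (adjusted p = 0.0805), Mmp14 knockout replicate 1 (0.137) or Mmp14 knockout replicate 2 (0.0534).

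Mrpl20, the counterpart of bacterial ribosomal protein L20, was at 3.99 and 3.98 log2 in knockout cells, against 4.63 and 4.61 in wild type cells. Replicates were nearly identical within each group. It also fell by 0.63 log2 (SE 0.10, limma adjusted p = 0.0143), or 1.55-fold. The call was lost without Mmp14 knockout replicate 1 (adjusted p = 0.0743) or Mmp14 knockout replicate 2 (0.0652).

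Other large subunit genes came close to the threshold. Mrpl17, whose bacterial counterpart lies near the exit of the nascent chain, was at 6.36 and 6.42 log2 in knockout cells, against 6.77 and 6.81 in wild type cells. Its difference of −0.40 log2 had a 95% interval of −0.65 to −0.15 and was not called (limma adjusted p = 0.0575). Mrpl34 was at 6.16 and 6.51 log2 in knockout cells, against 6.84 and 6.75 in wild type cells. Neither gene's groups overlapped, but the knockout arrays of Mrpl34 lay further apart, and its difference of −0.46 was not called either (limma adjusted p = 0.101). Mrpl38, a mitochondria-specific protein, was at 5.14 and 5.21 log2 in knockout cells, against 5.53 and 5.60 in wild type cells (limma adjusted p = 0.0637).

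At the other end of the large subunit, Mrpl47, Mrpl13, Mrpl48 and Mrpl24 had differences of 0.20, 0.16, 0.13 and 0.13 log2, and none was called. Mrpl24 overlapped between the groups. Mrpl3 and Mrpl23 were each at 0.0022 log2 or less in size, with 95% intervals reaching from −0.29 to 0.29. For these genes, a change of up to that size in either direction was therefore not excluded with 4 arrays.

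None of the 26 tested small subunit genes was called. At an unadjusted p below 0.05 in the limma fit, 1 was higher and 6 were lower. The shares over all genes tested were 14.1% higher and 13.5% lower. Mrps16, the counterpart of bacterial S16, had the lowest difference, −0.47 log2. It was at 5.75 and 5.23 log2 in knockout cells, against 5.94 and 5.99 in wild type cells, so that the knockout arrays differed from each other by about as much as the groups did (limma adjusted p = 0.154). Its second, dimmer probe set was at 3.88 and 3.90 log2 in knockout cells, against 4.55 and 4.49 in wild type cells, a difference of −0.63 with close replicates. With the mean of both probe sets, Mrps16 was called (−0.55 log2, limma adjusted p = 0.0396), as it was without Mmp14 knockout replicate 1 (−0.73, adjusted p = 0.0478).

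Mrps2, Mrps7 and Mrps18b followed with −0.40, −0.38 and −0.37 log2, each with groups that did not overlap and none called. On the other side, Mrps31 was at 5.43 and 5.50 log2 in knockout cells, against 5.17 and 5.12 in wild type cells. Its difference of 0.32 log2 (95% interval 0.07 to 0.57) was the only positive one at an unadjusted p below 0.05 and was not called (limma adjusted p = 0.104). Mrps35, also mitochondria-specific, was at 3.89 and 3.88 log2 in knockout cells, against 3.77 and 3.35 in wild type cells, and its wild type arrays were far apart (limma adjusted p = 0.248). Mrps5 (0.14) and Mrps10 (0.09) were not called.

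**Figure D3:**
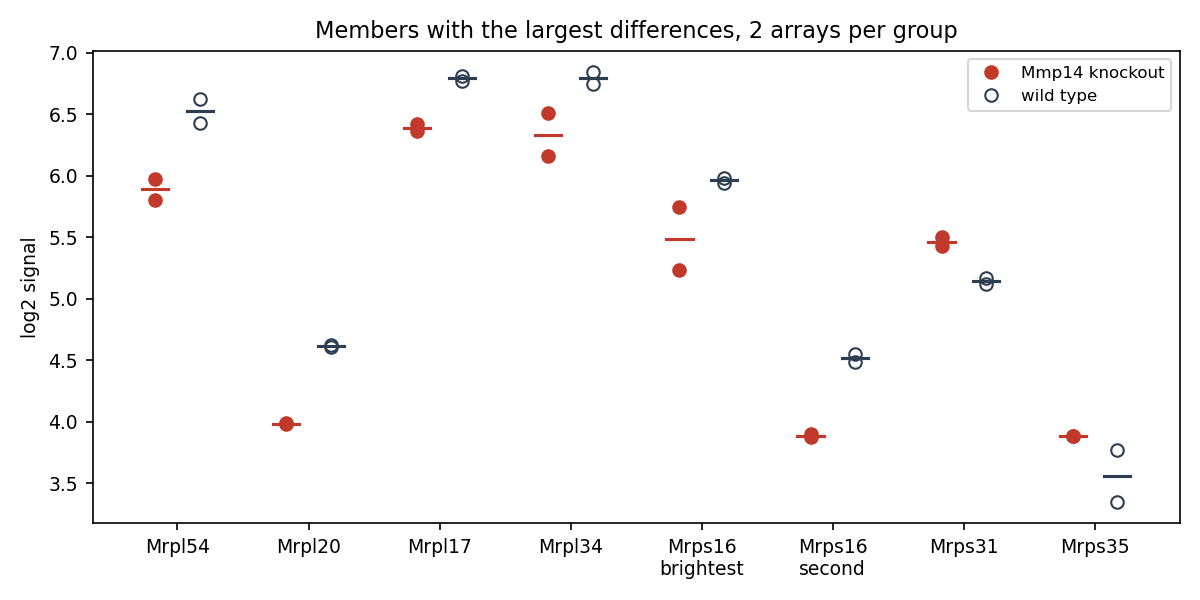
Log2 signal (y axis) of the tested members with the largest falls (Mrpl54, Mrpl20, Mrpl17, Mrpl34 and Mrps16) and the largest rises (Mrps31 and Mrps35). For each gene, filled red points on the left are the 2 knockout arrays and open points on the right the 2 wild type arrays. Bars are group means, and both probe sets of Mrps16 are drawn. Falls that are not drawn, such as Mrpl57 (−0.40 log2) and Mrps2 (−0.40), were larger than the rises drawn. Mrpl54 and Mrpl20 were called, and the replicates of Mrpl20 and of the second Mrps16 probe set are much closer to each other than the groups are.

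The Mrps18 paralogues, which descend from 1 bacterial S18 gene, had different values. Mrps18b was at 5.70 and 5.79 log2 in knockout cells, against 6.05 and 6.18 in wild type cells (limma adjusted p = 0.0882), and its second probe set gave −0.19. Mrps18a had a difference of −0.27 and Mrps18c of −0.09, both with overlapping groups. Their 95% intervals, −0.64 to −0.10 for Mrps18b, −0.67 to 0.13 for Mrps18a and −0.40 to 0.23 for Mrps18c, overlap widely, and the differences between the paralogues were not tested. Mrps30 had −0.10 log2.

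Proteins with a bacterial counterpart had a median difference of −0.14 log2 over 40 tested genes, against −0.10 over 26 mitochondria-specific ones, with 1 called gene in each class. In the small subunit the medians were −0.18 over 14 genes with a counterpart and −0.10 over 10 classed as mitochondria-specific. Mrps18b was put in the latter class despite its descent from S18, and Mrps18a and Mrps30 were in neither class. Among members with textbook roles, Mrpl12 of the stalk had −0.21 log2, Mrpl45, which holds the ribosome at the inner membrane, 0.04, and Mrpl58, which releases stalled chains, −0.09. Mrps12 of the decoding centre had −0.08. None of these genes was called.

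Signals of tested members ran from 2.99 log2 for Mrpl14 to 7.98 for Mrpl52, followed by Mrpl24 (7.70), Mrps15 (7.29) and Mrpl10 (6.83). These are brightnesses of probe sets and do not rank the genes by amount. Mrps14, Mrps36 and Mrpl27 had means of 2.30, 2.29 and 2.13 log2, below the 2.34 set for dim genes, and were not tested. Of the 9 members with a second probe set, 6 had one below 2.34. The second probe set had the other sign in Mrpl10, Mrpl47, Mrps5, Mrps17 and Mrps18c, and of these only that of Mrpl10 was above 2.34, at 2.71 log2 in knockout cells and 2.47 in wild type cells.

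The other genes of mitochondrial translation did not all shift with the ribosomal proteins. Of 27 assembly factors, 1 was called (3.7%, against 11.3% of all genes tested), and the list's median was −0.08. This gene, Mpv17l2, encodes an inner membrane protein known to act in ribosome assembly and fell (−0.71 log2, limma adjusted p = 0.0134). It was at 6.78 and 6.76 log2 in knockout cells, against 7.41 and 7.56 in wild type cells, and its call was lost without Mmp14 knockout replicate 1 (limma adjusted p = 0.0581) or replicate 2 (0.0535). None of 13 translation factors was called (median 0.0057), among them the elongation factor Tufm (−0.11). Of 16 mitochondrial aminoacyl-tRNA synthetases, 8 were below and 8 above 0, and the median was −0.0041. Mars2 (−0.61) and Sars2 (−0.51) were called lower, 12.5% of the list, against 11.3% of all genes tested. The Sars2 call was lost without any 1 of the 4 arrays (limma adjusted p of 0.0653 to 0.158), and the Mars2 call without each array but Mmp14 knockout replicate 1 (0.0943 to 0.179). The 3 measured ribosomal proteins with other symbols, Dap3 (0.02), Ptcd3 (−0.01) and Gadd45gip1 (−0.42), were not called.

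Of 23 tested factors of mitochondrial DNA and RNA, 1 was called (4.35%, against 11.3% of all genes tested), and the median was 0.12. This gene, Tfam, rose by 0.52 log2 (limma adjusted p = 0.0365). Tfam packages mitochondrial DNA and starts its transcription. It was at 3.79 and 3.87 log2 in knockout cells, against 3.39 and 3.24 in wild type cells. The call was lost without any 1 of the 4 arrays (limma adjusted p of 0.0523 to 0.152), without the filter on dim genes (0.0583) and with trend and robust eBayes (0.0549). None of the 10 mitochondrially encoded genes on the array was called (median 0.02), and the subunit gene ND6 had the largest difference, −0.32.

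Among regulators, the coactivator gene Ppargc1b fell by 0.65 log2 (limma adjusted p = 0.0295), with 3.13 and 2.86 log2 in knockout cells and 3.69 and 3.60 in wild type cells, and the call was lost without each array but Mmp14 knockout replicate 1 (0.0697 to 0.12). Nrf1 (0.01), Gabpa (−0.03) and Myc (0.17) were not called. Ppargc1b was the only 1 of the 11 tested regulators called (9.09%, against 11.3% of all genes tested), and the list's median was −0.06. Ppargc1a was too dim to be tested, at 2.24 and 2.89 log2 in knockout cells and 1.86 and 1.50 in wild type cells.

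Other lists measured on the same arrays shifted in the same direction. The nuclear genes for subunits of oxidative phosphorylation had a median of −0.24 log2 over 68 tested genes. Of the 68, 61 were below 0 (89.7%, against 50.6% of all genes tested). Calls numbered 5 lower and 0 higher (7.35% of the list, against 11.3% of all genes tested). Of those 5 calls, 2 held without wild type replicate 1 and none without any other single array. Cytosolic ribosomal proteins had a median of −0.09 over 60 tested genes, with 46 below 0 (76.7%) and 1 called lower (1.67%). This gene was Rpl26 (−0.92 log2), and its call was lost without Mmp14 knockout replicate 1 (−0.82). Cell cycle genes had a median of −0.68 over 20 tested genes, with all 20 below 0 (100%, against 50.6% of all genes tested). Both knockout arrays lay below both wild type arrays in 19 of them (95%, against 29.8% of all genes tested). In this list 10 genes were called lower and 0 higher (50% of the list, against 11.3% of all genes tested). Removing any single array cost some of these 10 calls. With every probe set in 1 fit, none of the calls of these 3 lists held, nor did those of Mpv17l2, Mars2, Sars2, Tfam and Ppargc1b (limma adjusted p of 0.107 to 0.231 for these 5). The mean level of the cell cycle genes was 4.58 and 4.74 log2 in knockout cells and 5.43 and 5.20 in wild type cells. The part of cell cycling in the values of the ribosomal proteins was not tested.

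**Figure D4:**
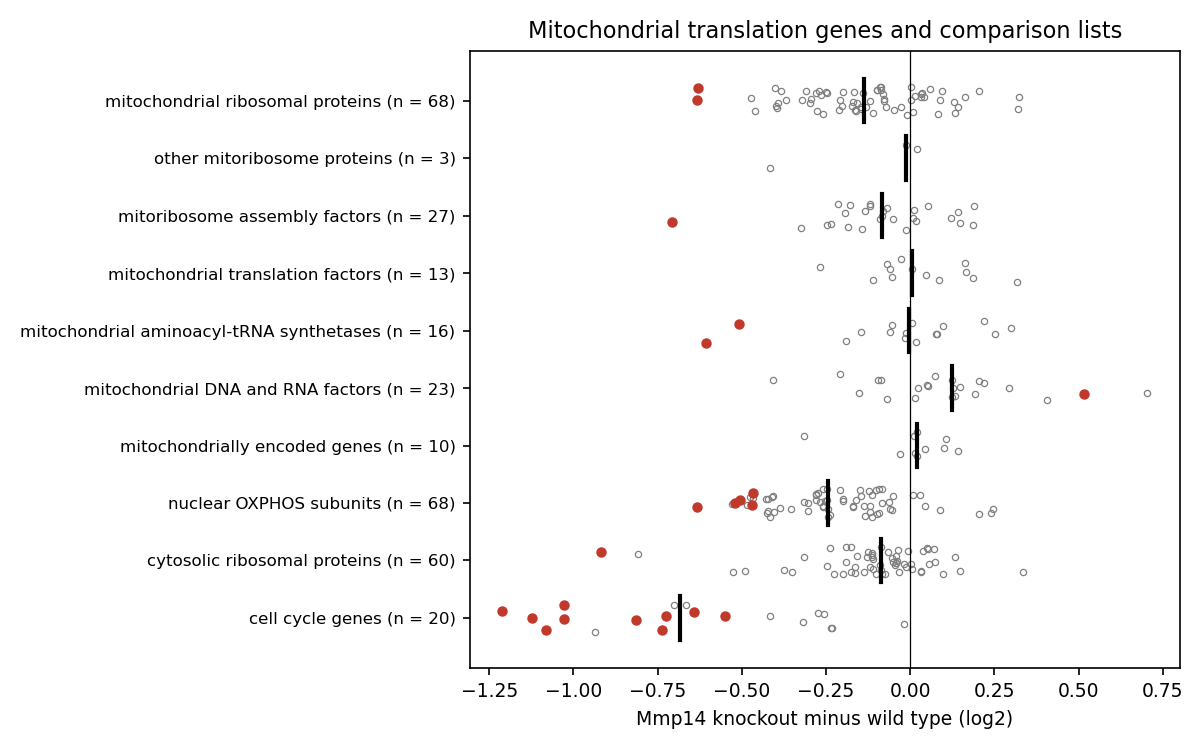
Knockout minus wild type difference (x axis, log2) of each tested gene in the mitochondrial ribosomal protein set and in 9 comparison lists; filled red points are genes called at an adjusted p below 0.05, open points genes not called, and black bars list medians. The medians run from −0.68 for cell cycle genes to 0.12 for factors of mitochondrial DNA and RNA, with −0.14 for mitochondrial ribosomal proteins.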

How the data were processed

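The deposited values were log2 intensities for 41345 probe sets on 4 Affymetrix arrays, per the series design, ranging from 0.43 to 12.2. Per the submitters' processing notes, limma and oligo were used, with no version or role stated. How the arrays were normalized is not given in the sources used here. Total RNA (10 ng) was amplified to cDNA and labelled with biotin, per the labels' protocols. Symbols came from the supplied probe annotation: 23521 probe sets had exactly 1, 1814 several and 16010 none. A gene was tested where its mean reached 2.34 log2, the median over all rows, which left 12708.

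Knockout minus wild type differences were fitted with limma 3.58.1 under R 4.3.3 (lmFit, eBayes, two-sided tests, no block, 2 residual and 3.99 prior degrees of freedom), adjusted by Benjamini and Hochberg over all genes tested and called below 0.05. Intervals are unadjusted. The procedure was tested on simulated data. Members and lists were chosen with earlier results of these data known, and the letters of the NRF1 core were changed after the matches of a longer form had been seen. Named members were those called, the 4 largest differences in each direction per subunit, the 4 brightest and 4 dimmest, those whose symbol and complex differ, the Mrps18 paralogues, and those with probe sets of opposite sign. A few members with textbook roles, Mrpl38, Mrpl3 and Mrpl23 were added after seeing their values. Of each list up to 4 genes were named, called ones first. Alternatives covered filters on dim genes, the replicate block, normalization, variance models, choice of probe set, the threshold and leaving out each array; 1 more, all probe sets under robust, trended eBayes, was chosen after seeing the data. The number of arrays limits the precision.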

Additional observations from a re-analysis of the deposited data

How the results depend on the processing

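The median difference of the members stayed below 0 under every alternative run, from −0.16 to −0.11 log2, and 45 to 55 tested members were below 0, or 35 of 45 under the stricter filter. Quantile normalization moved the share of members below 0 to 80.9%. Leaving out single arrays gave a large subunit median of −0.15 to −0.090 and a small subunit median of −0.18 to −0.084. Under the stricter filter, at 4.76 log2, Mrpl20 (mean 4.30) was not tested. Of the 45 members tested there, 5 were called lower (Mrpl54, Mrpl17, Mrpl34, Mrpl38 and Mrps18b) and 1 higher (Mrps31), against 21.7% of all genes. Members called lower numbered 4 of 68 with trend and robust eBayes (16.5% of all genes called) and 5 of 68 at an adjusted p below 0.1 (18.6%). They numbered 1 of 68 with the replicate block (8.32%) and 3 of 67 with the mean of the probe sets (11.2%). With every probe set in 1 fit they numbered 0 of 71, with (1.32%) or without (0.527%) trend and robust eBayes. Without single arrays they numbered 0 to 2. Over all genes, 129 were called higher and 89 lower with every probe set, 316 and 231 with trend and robust eBayes added, 1240 and 1125 at the looser threshold, and 1072 and 1027 with trend and robust eBayes alone. Leaving out single arrays gave 394 to 672 higher and 293 to 459 lower. Over all genes, the share called thus ran from 0.527% with every probe set to 21.7% under the stricter filter. Same-numbered arrays share only a number (their deviations correlated at −0.04). With the replicate block the calls of Mrpl54 (adjusted p = 0.062), Tfam (0.072), Mars2 (0.0787) and Sars2 (0.0707) were lost, and 1 of 5 oxidative phosphorylation calls and 6 of 10 cell cycle calls held. With every probe set in 1 fit, 4 of 6 stromal marker calls held and the Rgs5 call did not, and with trend and robust eBayes added 2 of 10 cell cycle calls and that of Mpv17l2 held. Without the filter, Tfam (0.0583), Mars2 (0.0728) and Sars2 (0.056) lost their calls, and 1 of 5 oxidative phosphorylation calls held. No symbol ended in a pseudogene suffix. The filters change which genes share the adjustment; other causes were not tested. The number of arrays limits what single members can show.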
